A study of Mus musculus with 4 samples.

Results

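The proteins of the mitochondrial ribosome that carry an *Mrpl* or *Mrps* symbol were followed at the RNA level in NIH/3T3 cells after knockdown of *Setd2*. Members were all rows of the deposited transcript table with the category protein coding and a symbol that starts with *Mrpl* or *Mrps* and goes on with a number. This gave 127 transcripts of 78 genes, out of 34200 tested transcripts of 21945 genes. *Mrpl* genes, named for the large subunit, made up 78 transcripts of 49 genes, and *Mrps* genes, named for the small subunit, 49 transcripts of 29 genes. For 50 genes a single transcript was tested and for 28 genes several, with 7 for *Mrps17* as the most.

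Mitochondria translate the few proteins encoded in their own genome, all of them parts of the respiratory chain or of ATP synthase, on ribosomes of their own. The RNAs of these ribosomes come from the mitochondrial genome, whereas every protein of them is encoded in the nucleus, made in the cytosol and imported. Some of the proteins descend from those of bacterial ribosomes and others occur in mitochondria only, and the large subunit joins amino acids while the small subunit reads the mRNA.

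NIH/3T3 is an established line of mouse fibroblasts. KD cells had been co-transfected with 2 siRNAs against *Setd2*, which encodes the methyltransferase for trimethylation of histone H3 at lysine 36, and WT cells with a non-targeting (Scrambled) siRNA. Both groups received Lipofectamine 3000 and a final siRNA concentration of 10 nM, and RNA was taken at 48 h for stranded sequencing of polyadenylated RNA in 2 KD and 2 WT libraries. As both KD libraries received the 2 siRNAs together, effects of a single siRNA cannot be told apart from those of the loss of *Setd2*.

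The deposited values are pooled over libraries, so the level in each group, the difference between groups and its error are given below. No library was looked at on its own, so depth per library is unknown and whether KD and WT libraries overlapped was not examined. A level is the geometric mean of the libraries of a group in estimated read counts, normalised between libraries by the authors, and is called counts below. A transcript is said to have risen or fallen where limma's moderated test gave an adjusted p under 0.05 over all 34200 transcripts, and ± marks the standard error of a log2(fold change) with 2 libraries in each group. The 1 tested *Setd2* transcript fell from 3680.4 counts in WT to 923 counts in KD, a log2(fold change) of −1.99 ± 0.08 (limma, adjusted p = 0.0144). All 9 fibroblast markers listed were tested, with a median summed level of 31290 counts per kilobase, and 3 of their transcripts fell and 2 rose. Of 12 markers of other cell types 7 were tested, at 1.87 to 291 counts per kilobase, and 5 (*Epcam*, *Krt18*, *Myod1*, *Pparg* and *Sox10*) were not among the tested transcripts.

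Mitochondrial ribosomal protein RNAs were higher in KD than in WT for most genes, by a small amount. The summed level of a gene was higher in KD for 72 of the 78 genes, with a median log2(fold change) of 0.28, a lowest value of −0.21 and a highest of 1.01. Among all genes with at least 100 counts the median was 0.04, and 54.3% were higher in KD. The sum over all members went from 201828 counts in WT to 247854 counts in KD, which was 22.8% more, and from 0.315% to 0.366% of the counts of all tested transcripts. In bulk RNA, a change in the amount of these RNAs per cell and a change in the make-up of the cells cannot be told apart. No p is given for these sums and medians, which describe the list.

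**Figure D1:**
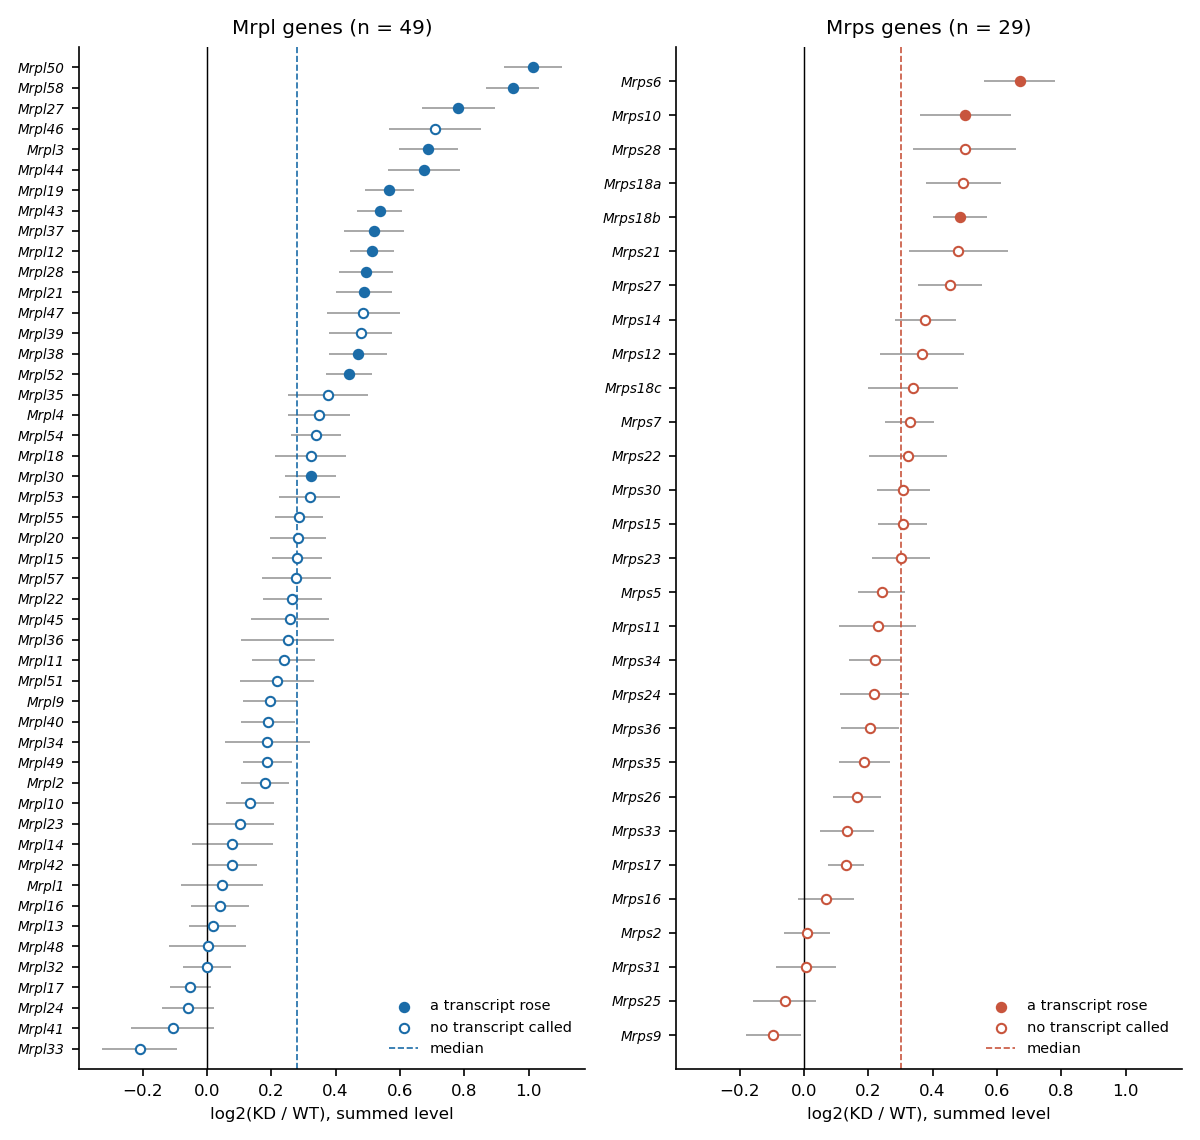
Log2(fold change), KD against WT, of the summed level of each of the 49 *Mrpl* genes (left) and 29 *Mrps* genes (right); bars are 1 standard error with transcripts treated as independent, filled points are genes with a transcript that rose, and dashed lines are the medians of 0.28 and 0.30. Points right of the line at 0 are 72 of 78, and no gene had a transcript that fell.

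Of the 127 member transcripts 18 (14.2%) of 17 genes rose and 0 fell in limma's moderated test. Over all 34200 transcripts 5.44% rose and 4.24% fell. At an unadjusted p under 0.05, 51 members were higher in KD and 0 were lower, against 5203 and 4453 of all 34200 transcripts. With at least 100 counts these were 48 and 0 of 112 members, against 4479 and 3322 of 18808 transcripts. Members had more counts than other transcripts, with a median level of 1447 counts against 155, and 112 of the 127 reached 100 counts. Among all transcripts that reached 100 counts 9.1% rose and 6.55% fell in the same test, against 15.2% and 0% of the 112 members. These members still had more counts, with a median level of 1811 against 928 for all transcripts that reached 100 counts. Leaving out a called *Mrps10* transcript that was listed at 0 in WT, the log2(fold changes) of the other 17 calls ran from 0.44 to 1.11 with a median of 0.57, so all but 2 of them were smaller than a doubling.

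The count of calls depended on the test, and both the count and the direction depended on the scaling. With the spread of each transcript drawn toward 1 common value in place of a trend, limma called 1 member as risen (0.149% of all transcripts rose and 0.222% fell). A Wald test called 38 (10.4% of all rose and 7.8% fell). It used the authors' shrunken variance between libraries plus that of read assignment, and a normal distribution in place of limma's t-distribution. Among transcripts with at least 100 counts, tested alone, 29 of 112 members rose (14.1% of all rose and 10.2% fell). After centring on the median of transcripts with at least 100 counts, a log2 value of 0.048, 15 members rose (4.32% of all rose and 4.95% fell). After centring on transcripts of like GC content 8 rose (3.19% of all rose and 2.84% fell). In these 5 settings 0 members fell. When the level was set against that of an *Actb* transcript, the gene used for RT-qPCR in the study, which itself rose by 0.46 on the log2 scale (limma, adjusted p = 0.0414), 4 members rose (1.55% of all) and 24 fell (27.2% of all). The 24 falls were 18.9% of the members. In that scaling 57 of the 78 genes were lower in KD. Of all transcripts with at least 100 counts, 84% had a log2(fold change) up to 0.44, below that of *Actb*, and so were lower too. Every rise below is relative to the authors' normalisation over all transcripts and not to *Actb*.

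**Figure D2:**
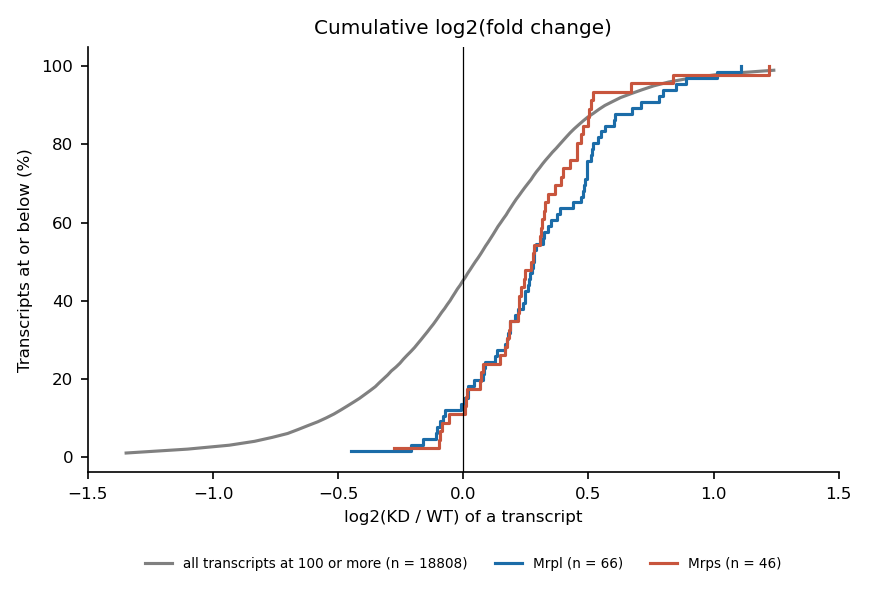
Cumulative share of transcripts (vertical axis, %) at or below a log2(fold change) of KD against WT (horizontal axis) for *Mrpl* transcripts (66), *Mrps* transcripts (46) and all 18808 transcripts, each with at least 100 counts. Both member curves lie right of that of all transcripts up to about 80%, and the *Mrpl* curve runs right of the *Mrps* curve between log2(fold changes) of about 0.3 and 0.8.

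*Mrpl* and *Mrps* genes had like median differences between KD and WT. The median log2(fold change) of summed levels was 0.28 for *Mrpl* genes, with 45 of 49 higher in KD, and 0.30 for *Mrps* genes, with 27 of 29 higher in KD. The difference of the medians, *Mrpl* minus *Mrps*, was −0.02 and took the opposite sign, 0.02, when the transcript with the most counts stood for each gene. The summed counts were 23.2% higher in KD for *Mrpl* and 22.2% higher for *Mrps*. Calls were less evenly placed, with 15 of 78 *Mrpl* transcripts (19.2%) and 3 of 49 *Mrps* transcripts (6.12%) risen. Over all transcripts 5.44% rose, and 9.1% of those with at least 100 counts. That level was reached by 66 *Mrpl* and 46 *Mrps* transcripts, of which 15 and 2 rose in the same test. The gap between *Mrpl* and *Mrps* varied with the setting. At an unadjusted p under 0.05 in limma's moderated test, 32 of 78 *Mrpl* and 19 of 49 *Mrps* transcripts were higher in KD. Among all 34200 transcripts 5203 were. The Wald test called 32.1% of *Mrpl* and 26.5% of *Mrps* transcripts as risen, and the test of transcripts with at least 100 counts 30.3% and 19.6%. Centring on the median gave 15.4% and 6.12%, and centring on GC content 8.97% and 2.04%. Without a trend the shares were 0% and 2.04%, and under *Actb* scaling 3.85% and 2.04%. The upper quartile of the log2(fold changes) of genes was 0.49 for *Mrpl* and 0.38 for *Mrps*, and the median spread between libraries of a group was 0.11 and 0.14 on the log2 scale. The difference between the 2 names in calls was not tested, since both counts come from transcripts of the same 4 libraries.

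The names do not follow the place of each protein in the ribosome throughout. *Mrps30* and *Mrps18a* encode proteins of the large subunit in mammals, and *Mrps36* encodes a protein now known from the 2-oxoglutarate dehydrogenase complex. *Mrps30* went from 1720 to 2131 counts, a log2(fold change) of 0.31 ± 0.08 (limma, adjusted p = 0.0866). The main *Mrps18a* transcript went from 1980 to 2822 counts, a log2(fold change) of 0.51 ± 0.12 (limma, adjusted p = 0.0744), and that of *Mrps36* from 888 to 1036 counts, 0.22 ± 0.10 (limma, adjusted p = 0.223). None of them passed the threshold. With genes sorted by place, the median was 0.28 over 51 genes of the large subunit and 0.27 over 26 genes of the small subunit, so that the sign of the small difference turned once more.

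The members that rose are described in the order of their parts, first the proteins of the large subunit that mitochondria share with bacteria. Over the table, 7.47% of all genes had a risen transcript, against 21.8% of the member genes. Counted over transcripts with at least 100 counts, these shares were 12.6% and 20.5%. Of the 30 genes of this class 7 (23.3%) had a risen transcript, the median of their summed log2(fold changes) was 0.26, and 27 were higher in KD. *Mrpl3*, a protein whose bacterial counterpart reaches the site of peptide bond formation, rose from 1366 to 2529 counts in its main transcript, by 0.89 ± 0.10 on the log2 scale (limma, adjusted p = 0.0227). Its other transcript went from 851 to 1041 counts and was not called. *Mrpl27*, whose bacterial counterpart extends to the same site, rose from 1646 to 2830 counts, by 0.78 ± 0.11 (limma, adjusted p = 0.0297). Both were among the 5 genes with the largest summed change. *Mrpl19* rose from 2332 to 3457 counts and *Mrpl28* from 4555 to 6418 counts, by 0.57 ± 0.08 and 0.49 ± 0.08. *Mrpl12*, which forms the stalk that recruits translation factors, rose from 5146 to 7350 counts, by 0.51 ± 0.07 (limma, adjusted p = 0.0266). *Mrpl21* rose from 3395 to 4741 counts in its main transcript, by 0.48 ± 0.09.

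*Mrpl30*, another protein with a bacterial counterpart, had a call in 1 of its 3 tested transcripts, and the difference between its isoforms was not tested. The transcript with 29.7% of the counts of the gene in WT, ENSMUST00000193673.5, rose from 1558 to 2371 counts, by 0.61 ± 0.09 (limma, adjusted p = 0.0286). The main transcript, ENSMUST00000027256.11, went from 3666 to 4154 counts, 0.18 ± 0.11 on the log2 scale, and was not called (limma, adjusted p = 0.339). The gene thus held a called rise at a summed log2(fold change) of 0.32, close to the median of all members.

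The other class of the large subunit holds proteins that occur in mitochondria only and *Mrps18a*, a relative of a bacterial protein of the small subunit. Its median was 0.34 over 21 genes, of which 20 were higher in KD and 7 (33.3%) had a risen transcript, and 0.33 over the 20 genes without *Mrps18a*. *Mrpl50*, on chromosome 4 from 49512596 to 49521093 on the minus strand of GRCm38, had the largest summed change of all members. It has 1 tested transcript of 2 exons, which rose from 2066 to 4171 counts, by 1.01 ± 0.09 (95% confidence interval 0.78 to 1.25; limma, adjusted p = 0.0179). *Mrpl58*, also known as Ict1 and related to release factors, frees peptides from stalled ribosomes and lies on chromosome 11 from 115403752 to 115412674 on the plus strand. Both of its main transcripts rose, ENSMUST00000103036.4 from 550 to 955 counts, by 0.80 ± 0.13 (limma, adjusted p = 0.0349), and ENSMUST00000153983.7 from 492 to 1062 counts, by 1.11 ± 0.11 (limma, adjusted p = 0.019). The transcript that ranked second in WT was thus the first in KD. *Mrpl58* as a whole went from 1089 to 2104 counts, so the summed level of these 2 genes about doubled, while that of the other genes with a risen transcript changed less.

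The remaining called genes of this class changed less. *Mrpl44*, which has a fold related to ribonuclease III and lies near the exit of the nascent chain, rose from 955 to 1523 counts, by 0.67 ± 0.11 (limma, adjusted p = 0.0363). *Mrpl43* rose from 2248 to 3261 counts, by 0.54 ± 0.07, and *Mrpl37* from 3027 to 4341 counts, by 0.52 ± 0.09. *Mrpl38*, a protein of the central protuberance, rose from 2155 to 2985 counts, by 0.47 ± 0.09, and *Mrpl52* from 1627 to 2202 counts, by 0.44 ± 0.08, the smallest change that was called. *Mrpl46*, also of the central protuberance and named here after its values were seen, had a larger difference with a wider error, 0.71 ± 0.14 from 1093 to 1786 counts, and was just outside the threshold (limma, adjusted p = 0.0511). By region of the large subunit, 1 of 5 genes of the stalk, 1 of 6 of the central protuberance and 1 of 7 around the exit tunnel had a risen transcript, with medians of 0.32, 0.30 and 0.26, beside the 12.6% of all genes with at least 100 counts, and differences between these regions were not tested.

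In the small subunit 3 of 17 genes with bacterial counterparts (17.6%) had a risen transcript, at a median of 0.33 and with 16 of 17 higher in KD. That share was not far from the 12.6% of all genes counted over transcripts with at least 100 counts. It includes *Mrps10*, called through a transcript below that level, which the 12.6% does not cover. Of the 9 genes particular to mitochondria 0 had a risen transcript in limma's moderated test, at a median of 0.19 and with 8 of 9 higher in KD. Among transcripts with at least 100 counts, *Mrps27* and a transcript of *Mrps23*, named after their values were seen, rose (limma, adjusted p = 0.0375 and 0.0425). The shares of both classes depend on the sorting, which placed the called *Mrps18b* with bacterial counterparts and its relative *Mrps18a* with proteins particular to mitochondria. *Mrps6*, on chromosome 16 from 92058270 to 92112227, rose from 5713 to 9092 counts, by 0.67 ± 0.11 (limma, adjusted p = 0.0354), and had the largest summed change of the *Mrps* genes. *Mrps18b* is 1 of 3 mitochondrial relatives of the bacterial protein S18 and the only one of them with a called transcript, which rose from 2897 to 4098 counts, by 0.50 ± 0.09 (limma, adjusted p = 0.0398). *Mrps18a* was given above, and the main transcript of *Mrps18c* went from 2749 to 3478 counts, 0.34 ± 0.15 (limma, adjusted p = 0.225). The summed log2(fold changes) of the 3 genes, 0.50 for *Mrps18a*, 0.49 for *Mrps18b* and 0.34 for *Mrps18c*, were of a like size, and their differences were not tested.

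*Mrps10*, a protein of the head of the small subunit, was the third called *Mrps* gene, through a minor isoform. Its 4 tested transcripts on chromosome 17 combine 1 of 2 first exons, which start at 47368887 to 47368891 or at 47369197, with 1 of 2 starts of exon 3, at 47372573 or 47372576. The later start leaves out 3 bases. The sequences across the joint of exons 2 and 3, from GENCODE M21 on GRCm38, are shown because this choice separates the called isoform from the main one. Capitals mark the 3 bases.
ENSMUST00000060752.12: tggcctcgcgcttgccagtatgaa
ENSMUST00000119841.7: tggcctcgcgctCAGtgccagtatgaa

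ENSMUST00000060752.12, with the late first exon and without the 3 bases, was listed at 0 in WT and at 115 counts in KD (limma, adjusted p = 0.0152). No fold is given against a level of 0. The main transcript, ENSMUST00000119841.7, with the same first exon and the 3 bases, went from 496 to 501 counts. The transcripts with the early first exon went from 381 to 460 counts without the 3 bases (ENSMUST00000120737.7) and from 180 to 421 counts with them (ENSMUST00000119945.7), and neither was called (limma, adjusted p = 0.373 and 0.27). The isoforms are told apart by their first exons and these 3 bases, and for the called transcript the standard deviation from the assignment of reads, 2.44 on the log2 scale, was larger than that between libraries, 0.14. The summed level of the gene went from 1057 to 1497 counts, a log2(fold change) of 0.50.

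**Figure D3:**
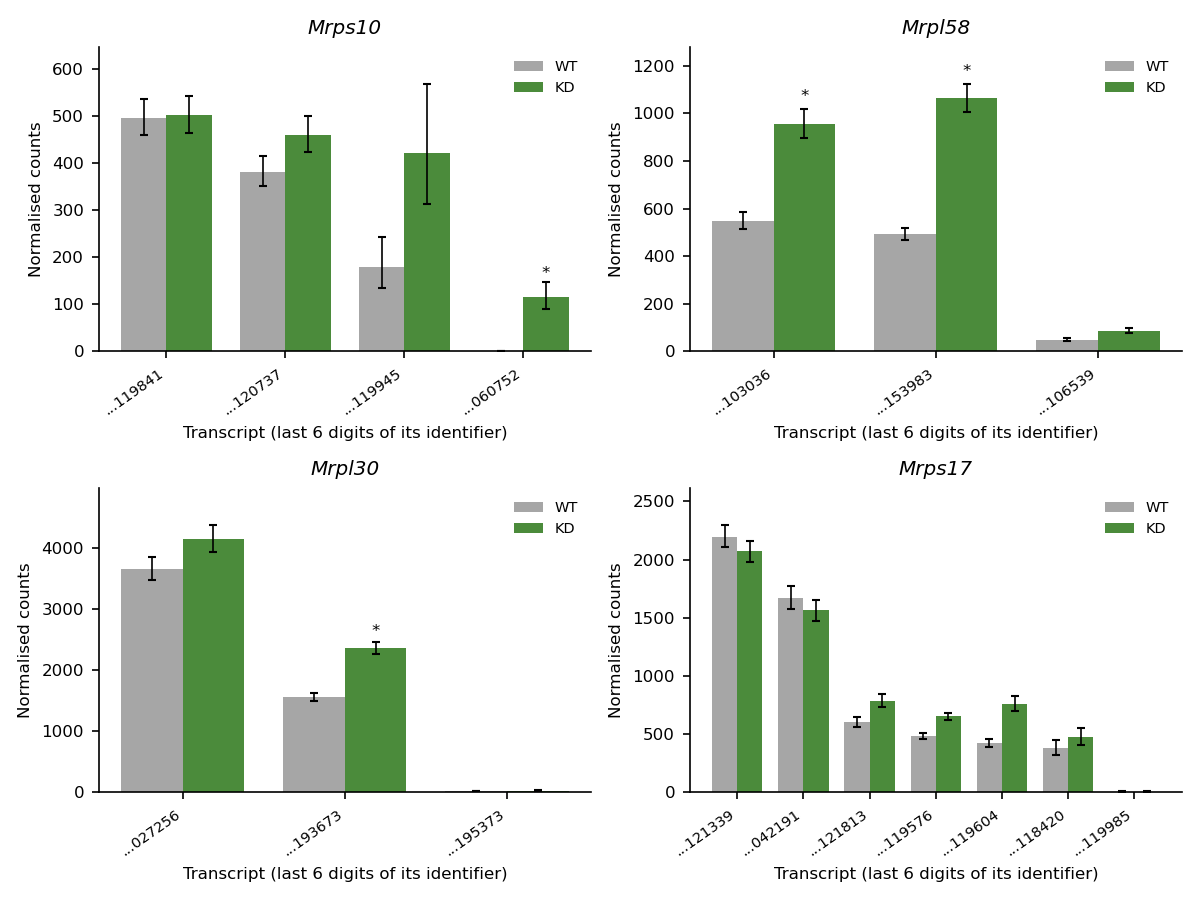
Levels (normalised counts) in WT and KD of the tested transcripts of *Mrps10*, *Mrpl58*, *Mrpl30* and *Mrps17*; bars are group levels over 2 libraries, error bars 1 standard error from limma, and asterisks transcripts that rose. The called *Mrps10* transcript has no bar in WT, and the 2 main *Mrps17* transcripts are lower in KD while its next 4 are higher.

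Isoforms of a gene often differed in the sign of their log2(fold change), but no gene with both signs had a called transcript in limma's moderated test. Of the 28 genes with several tested transcripts 15 had all of them higher in KD, 13 had transcripts of both signs and 0 had all of them lower, and 7 had a risen transcript. In 4 genes the main transcript and the summed level differed in sign, none of them with a called transcript in limma's moderated test. *Mrps17*, whose isoforms were looked at after their values were seen, shows such a case. Its main transcripts went from 2197 to 2071 counts and from 1671 to 1564 counts, while ENSMUST00000119604.7 went from 424 to 758 counts, 0.84 ± 0.17 on the log2 scale (limma, adjusted p = 0.0534). The gene as a whole went from 5767 to 6315 counts, with a log2(fold change) of 0.13.

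The lowest log2(fold changes) did not pass the threshold. *Mrpl33*, a small protein of the large subunit, had the lowest summed value, −0.21 ± 0.12, from 4432 to 3834 counts (95% confidence interval −0.51 to 0.09; limma, adjusted p = 0.314). The lowest single transcript was a minor 1 of *Mrpl24*, which went from 199 to 146 counts, −0.45 ± 0.19 (limma, adjusted p = 0.207). The other genes below 0 were *Mrpl41*, *Mrps9*, *Mrps25*, *Mrpl24* and *Mrpl17*, at −0.11 to −0.05.

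The members spanned a 26.1-fold range in level per kilobase of transcript. By the mean of KD and WT, the highest summed levels were those of *Mrps6* with 6752 counts per kilobase in WT and 10747 in KD, *Mrpl33* with 9272 and 8021, *Mrps21* with 6719 and 9367, *Mrpl30* with 6169 and 7920, and *Mrpl42* with 6280 and 6631. Of these 5 genes *Mrps6* and *Mrpl30* had a risen transcript, and *Mrpl33* was the highest in WT but stood behind *Mrps6* and *Mrps21* in KD. The lowest were *Mrpl48* with 314 counts per kilobase in WT and 356 in KD, *Mrpl57* with 342 and 414, *Mrps35* with 360 and 410, *Mrps25* with 411 and 395, and *Mrps26* with 462 and 518, and none of these 5 had a risen transcript. Over the 78 genes, Spearman's rho between the level and the log2(fold change) of the main transcript was 0.11, against 0.14 over 18804 transcripts with at least 100 counts. The median level per kilobase was 1970 counts for *Mrpl* genes and 1577 counts for *Mrps* genes.

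**Figure D4:**
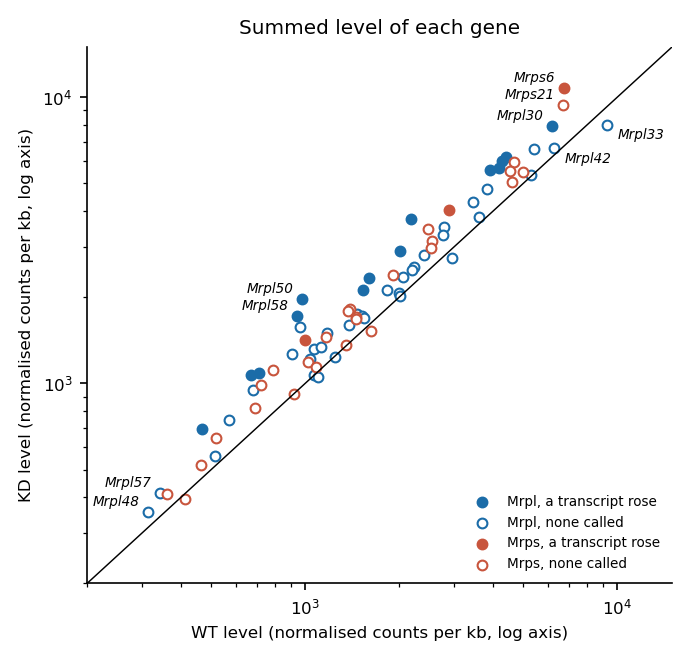
Summed level of each of the 78 genes in WT (horizontal) and KD (vertical), in normalised counts per kilobase on log axes; filled points are genes with a transcript that rose and the line marks equal levels. Most points lie above the line across the whole range, and *Mrpl33* lies below it at a high level.

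GC content moved with the log2(fold change) in the table as a whole and, less, among the members. Spearman's rho between GC content and log2(fold change) was 0.34 over 18804 transcripts with at least 100 counts and 0.26 over the main transcripts of the 78 genes, points that share the same 4 libraries. The 15 main transcripts that rose had a median GC content of 52.6%, and the 63 others had 49.7%. Against transcripts of like GC content, 8 members remained called, namely those of *Mrps10*, *Mrpl50*, *Mrpl3*, *Mrpl27*, *Mrpl30*, *Mrpl19*, *Mrpl43* and 1 of *Mrpl58*. *Mrpl50*, *Mrpl3* and *Mrpl19* are themselves low in GC, with 42.3%, 45.6% and 47.1%. The medians over genes after this centring were 0.22 for *Mrpl* and 0.23 for *Mrps*, and the part of GC content in the remaining differences was not tested.

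**Figure D5:**
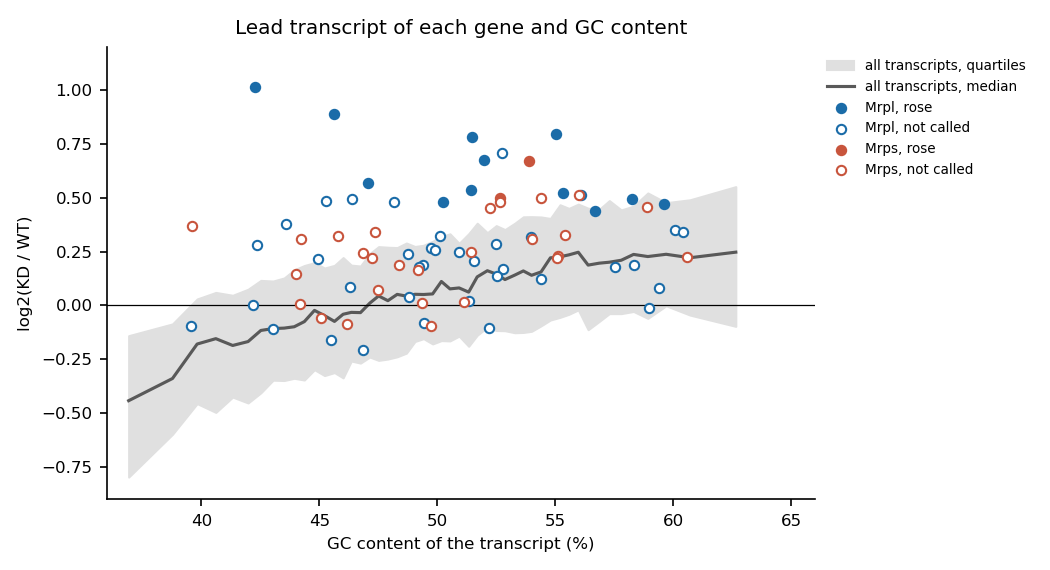
Log2(fold change) of the main transcript of each of the 78 genes (points) against its GC content (%), with the median and quartiles of all transcripts with at least 100 counts in 50 classes of GC content (line and band). The line climbs with GC content, and *Mrpl50* (42.3% GC) and *Mrpl3* (45.6% GC) lie far above the line at their GC content.

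The promoters were looked at because most members were higher in KD. RefSeq windows from 250 bases before to 50 bases after a gene start (GRCm38.p6) were matched by symbol for 69 of the 78 genes, 15 of them with a risen transcript. The letters CCGGAAG, bound by ETS factors, stood on either strand in the windows of 37.7% of the 69 genes, against 9.93% of all 27025 genes with a window. AAGATGGC, the core of the YY1 motif, was present in 17.4% against 3.19%, and GCATGCGC, from the motif of NRF1, in 11.6% against 3.05%. GGGCGG, the box of SP and KLF factors, was present in 49.3% against 38.2%, and CACGTG, the E-box, in 7.25% against 8.09%. Within the members, 7 of the 15 genes with a risen transcript and 19 of the other 54 held the ETS letters, and 4 of the 15 and 30 of the 54 held the SP and KLF box. Member windows were also richer in GC, with a median of 58.7% against 52.7%, and a match describes letters and not binding. The 27025 genes were taken whatever their level in these cells, and a comparison with genes of like level was not made.

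The sequences before the start of 4 risen genes and of *Mrpl33*, the gene with the lowest log2(fold change), follow on the strand of the gene. They show which of these genes held the ETS letters next to the start. The 4 are those with the largest summed change among genes with at least 60 bases outside annotated exons, and any of the 5 motifs found is in capitals.
Mrpl50, chr4:49521094-49521175, minus strand: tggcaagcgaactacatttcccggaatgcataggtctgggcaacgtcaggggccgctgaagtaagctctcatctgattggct
Mrpl58, chr11:115403602-115403751, plus strand: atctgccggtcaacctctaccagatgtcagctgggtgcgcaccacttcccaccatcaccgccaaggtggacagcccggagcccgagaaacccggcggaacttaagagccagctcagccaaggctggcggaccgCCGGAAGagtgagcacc
Mrpl3, chr9:105053118-105053238, plus strand: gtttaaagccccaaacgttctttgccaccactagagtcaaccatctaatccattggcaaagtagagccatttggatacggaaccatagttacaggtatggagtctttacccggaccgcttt
Mrpl43, chr19:45006443-45006557, minus strand: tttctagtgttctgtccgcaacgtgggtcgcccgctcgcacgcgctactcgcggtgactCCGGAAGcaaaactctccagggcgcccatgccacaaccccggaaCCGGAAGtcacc
Mrpl33, chr5:31613801-31613938, plus strand: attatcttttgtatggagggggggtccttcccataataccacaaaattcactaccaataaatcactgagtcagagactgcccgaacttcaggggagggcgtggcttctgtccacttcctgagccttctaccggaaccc

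The stretches of *Mrpl58* and *Mrpl43* held the ETS letters, those of *Mrpl50*, *Mrpl3* and *Mrpl33* held none of the 5 motifs in these bases.

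Several members share sequence with other annotated transcripts, so their counts depend on how reads were divided. Of the words of 31 bases in each member, 10 transcripts had under 50% that occur in no other gene on either strand. Both called ones are *Mrps18b*, which shared 55.6% with *Gm16279*, and *Mrpl27*, which shared 38.8% with *Gm6304*, and 16 of the 117 other transcripts rose. *Mrpl53* had no word of its own, since *Gm42688* holds all of it, and went from 2662 to 3322 counts. *Mrpl19*, *Mrps6* and *Mrps10* shared 39%, 33.8% and 29.2% of the words of their called transcripts with 1 other gene each, so the division of reads in them is uncertain too.

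The proteins of the mitochondrial ribosome with other symbols had log2(fold changes) of both signs. Of the 10 transcripts of these 5 genes 1 rose and 0 fell in limma's moderated test. *Gadd45gip1*, of the large subunit, rose from 1446 to 2365 counts, by 0.71 ± 0.08 (limma, adjusted p = 0.0209). *Ptcd3*, which helps bind mRNA in the small subunit, went from 6249 to 7523 counts, 0.27 ± 0.07 (limma, adjusted p = 0.0877). It was called as risen after centring on GC content (limma, adjusted p = 0.0456) and in the Wald test, but in no other setting. *Aurkaip1* and *Chchd1* encode proteins of the small subunit. *Aurkaip1* went from 1530 to 1799 counts in its main transcript, 0.23 ± 0.09, and *Chchd1* from 2938 to 3095 counts, 0.08 ± 0.08. That *Chchd1* transcript was called as fallen under *Actb* scaling only (limma, adjusted p = 0.0284), as were 27.2% of all transcripts. *Dap3*, a GTP-binding protein of the small subunit, was lower in KD without passing the threshold, with its main transcript at 2437 counts in WT and 1820 in KD, −0.42 ± 0.11, and a second at 1375 and 1028, −0.42 ± 0.09 (limma, adjusted p = 0.0783 and 0.0535). The second transcript was called as fallen after centring on the median and on GC content (limma, adjusted p = 0.0448 and 0.0434), and both were called as fallen in the Wald test, among transcripts with at least 100 counts and under *Actb* scaling, but not without a trend (limma, adjusted p = 0.166 and 0.207).

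Of the lists around the ribosome, translation factors had 3 risen transcripts of 23, assembly factors 3 of 37, and factors of mitochondrial transcription and genome copying 2 of 21, with 0 fallen in each in limma's moderated test. Together with *Gadd45gip1* these were 9 of 91 transcripts (9.89%), against 5.44% of all transcripts and close to the 9.1% of those with at least 100 counts. *Guf1*, a translation factor related to LepA, was called as fallen in the Wald test, after centring on the median, among transcripts with at least 100 counts and under *Actb* scaling, with a transcript at 735 counts in WT and 463 in KD, −0.66 ± 0.14 (limma, adjusted p = 0.0532, and 0.0476 after centring on the median). *Taco1*, a translational activator of cytochrome c oxidase subunit I, rose from 610 to 915 counts, by 0.58 ± 0.10 (limma, adjusted p = 0.0362). *Tufm* and *Gfm1*, the elongation factors Tu and G of mitochondria, rose from 3930 to 5521 and from 4359 to 5630 counts. *Dhx30*, an RNA helicase of assembly, rose from 1309 to 2163 counts in its main transcript, by 0.72 ± 0.08 (limma, adjusted p = 0.0201), and *Rcc1l* and *Ddx28* rose by 0.64 and 0.50. *Polrmt*, the RNA polymerase of mitochondria, rose from 1612 to 2605 counts, by 0.69 ± 0.10 (limma, adjusted p = 0.0278), and *Lrpprc*, which stabilises mitochondrial mRNAs, by 0.54 ± 0.08. The medians over genes were 0.25 for translation factors, with 8 of 13 genes higher in KD, 0.25 for assembly factors, with 21 of 24, and 0.14 for transcription, with 7 of 13, against 72 of 78 among the members.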

How the data were processed

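RNA-seq of 2 KD and 2 WT libraries was analysed, grouped by their labels. The authors removed adapters, quantified reads with Kallisto and compared the groups in Sleuth, and the transcriptome index is not given in the sources used here. The deposited means, effects and variances are on the natural log scale of normalised estimated counts plus 0.5 and are pooled over libraries. The authors' p-values and q-values, in a transcript table and a gene table, were not used. Group levels were rebuilt from mean and effect, the variance within groups (2 degrees of freedom) from the deposited variance and effect, and limma 3.58.1 (R 4.3.3) gave moderated, two-sided tests with a trend on the mean and Benjamini-Hochberg adjustment over 34200 transcripts. Series text mentions independent transfections, but labels do not tie libraries to them, so p-values measure the spread between these samples. The code was tested on simulated data. Positions came from GENCODE M21 (GRCm38; 98.6% of transcripts matched with version).

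Members and lists were chosen with earlier results of these data known. Named were all called members, the 5 highest and 5 lowest genes per kilobase, genes with isoforms called in both directions (none), *Mrps18a*, *Mrps18b*, *Mrps18c*, *Mrps30* and *Mrps36*, the 5 subunits with other symbols and the largest called change of each list. Alternatives were limma without a trend, a Wald test, a minimum of 100 counts, centring on the median or on 50 classes of GC content, scaling by *Actb*, main transcripts alone, the 0.5 kept in levels, and sorting by place in the ribosome.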

Additional observations from a re-analysis of the deposited data

How the results depend on the processing

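Under the alternatives, risen members numbered 1 without a trend, 38 in the Wald test, 29 of 112 at 100 counts or more and 8 after GC centring, and 28 were called under *Actb* scaling (4 rose, 24 fell), against 18. Calls in the 4 lists of other mitochondrial ribosome, translation, assembly and transcription genes were 9 of 91 transcripts, and all 9 rose. They were 0 without a trend and 26 in the Wald test (19 rose, 7 fell). At 100 counts or more they were 17 of 83 (13 rose, 4 fell), and under *Actb* scaling 21 (0 rose, 21 fell). Rises were 20.9% in the Wald test and 15.7% at 100 counts or more, against 10.4% and 14.1% of all transcripts so tested. Falls were 7.69% in the Wald test, 4.82% at 100 counts or more and 23.1% under *Actb* scaling. Of all transcripts so tested 7.8%, 10.2% and 27.2% fell, so the falls in the lists were no more frequent than elsewhere. Scaling by *Actb*, which moved every transcript by the same log2 value of 0.46, turned the medians to −0.18 for *Mrpl* and −0.16 for *Mrps*. It turned 1 called transcript, that of *Mrpl52*, to −0.0194. The *Mrpl* minus *Mrps* difference of −0.0206 turned to 0.0237 with main transcripts and 0.0124 by place in the ribosome. *Setd2* stayed at −1.99 without a trend but lost its call (limma, adjusted p = 0.0537; 0.00616 to 0.0167 in the other limma fits). Of the 18 called members the Wald test called all 18, median centring 15, GC centring 8, *Actb* scaling 4 as risen and the fit without a trend 1; the minimum of 100 counts left out the *Mrps10* transcript and called the other 17. The causes were not tested. No paired analysis was possible because the deposited columns carry no single libraries, and leaving out single libraries was not run for the same reason. Depth of single libraries is unknown, which limits statements on transcripts with few counts.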

Other observations

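*Mrpl23*, a protein beside the exit tunnel of the large subunit, had fewer counts than its processed pseudogene. The 3 tested *Mrpl23* transcripts summed to 354 counts in WT and 380 in KD, while *Mrpl23-ps1* on chromosome 2 stood at 898 and 1106 counts, a log2(fold change) of 0.30 ± 0.13 (limma, adjusted p = 0.213). The main *Mrpl23* transcript shared 77% of its words of 31 bases with the pseudogene. *Mrpl48-ps* on chromosome 4 stood at 155 and 187 counts, 0.27 ± 0.14 (limma, adjusted p = 0.298), while *Mrpl48* itself summed to 1125 and 1127 counts.

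*Mrpl46* and *Mrps11* lie head to head on chromosome 7, with *Mrpl46* starting at 78783089 on the minus strand and *Mrps11* at 78783119 on the plus strand of GRCm38. *Mrpl46* was at 0.71 ± 0.14 and *Mrps11* at 0.23 ± 0.12 on the log2 scale, and their difference was not tested.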
